A study of Oryzias melastigma with 12 samples.

Results

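The 100 array probes that differed most between the control dishes of a marine medaka study are described here, out of 26429 probes designed for this fish. Larvae of the marine medaka, Oryzias melastigma, were placed within 24 hours of hatching in seawater and kept for 7 days at 0, 0.2, 2 or 20 nM HBCD. This compound, hexabromocyclododecane, is a flame retardant that carries bromine. All groups, the controls included, received the solvent dimethyl sulfoxide at 1 part in 30000. There were 3 dishes of 100 larvae per concentration, and RNA from a pool of 30 whole larvae was hybridised to 1 one-colour array per dish, 12 arrays in all. The fish carry no transgene, and no strain or sex was given.

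The probes were chosen from the authors' deposited log2 values. The 10448 probes that the scanner software marked as well above background on over 0.5 of their spots on every array were ranked by their standard deviation (SD) over the 3 control arrays, and the first 100 were taken. Every statement on their spread between control arrays is therefore a description of how they were picked. The SD at the edge of the choice fell smoothly, from 0.588 for CUST_13270 at rank 96 to 0.584 for CUST_7810 at rank 100 and 0.582 for CUST_16286 at rank 101. The probes between the first of these were CUST_5958, CUST_1588 and CUST_2318, and those that followed were CUST_114, CUST_25587, CUST_20861 and CUST_14707, the last at 0.569.

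In whole-larva pools, a probe can differ between untreated dishes because the animals differ in stage, feeding or stress, because a tissue makes up more or less of the pool, or because the array measured it differently. Fewer cells of a type and less RNA per cell cannot be told apart in such pools. Each dish was read on 1 array, so a difference between dishes and a difference between arrays cannot be told apart either. A one-colour array reports each probe as the brightness of a spot a few pixels wide. A probe printed at several places gives several readings per array, and a probe printed once gives 1. HBCD is a persistent pollutant of coastal sediment and fish, studied for effects on the thyroid axis, the liver and the developing heart.

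The probes have numbers and no gene names in the files used here, and 0 probe names were found in the gene table at hand. No gene, tissue marker or sequence can therefore be attached to them, and the label of whole larvae could not be set against tissue markers. All probe names end in _PI414333748, which is left out of the text. Levels are log2 intensities relative to the 75th percentile of the array, so 0 is the level of a fairly bright probe and a difference of 1 is 2-fold.

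Spread between the control arrays is described here by the array that stood apart for each probe. For each probe, the control array farthest from the mean of the other 2 was found. This was replicate 1 for 41 probes, replicate 2 for 22 and replicate 3 for 37, close to the shares of 37.5%, 24.1% and 38.4% over all 10448 probes. The median distance was 1.43 log2 units (2.69-fold), while the remaining pair of control arrays differed by a median of 0.20, against medians of 0.137 and 0.036 over all probes. For any probe the remaining pair is the closest pair of control arrays, by the way the array that stood apart was found. A smaller difference within it is therefore fixed in advance. That remaining pair lay within 0.5 of each other in 90 of the 100 probes, against 99.9% of all, so it too was farther apart than on the array as a whole. The array that stood apart was the brighter one in 87 probes and the dimmer one in 13, against 50.6% brighter over all 10448 probes. A probe had to be well above background on every array to be eligible, which leaves a dim probe less room for a low reading. The part of this rule in the count of 87 was not tested.

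CUST_19098 led by a wide margin, with an SD of 4.37 in the deposited values. Its control levels were 6.72, -0.89 and -0.88, and its 9 exposed levels ran from -1.51 to -0.70. The first control array thus stood 7.60 log2 units above the other 2 and above every exposed array, and those 2 controls fell among the exposed arrays. This reading came from the probe's only spot on that array, which the scanner software marked as non-uniform. The processed intensity of that spot was 33345 against 169 and 162 on the other control arrays, while the median pixel of the same spot was 5017 against 201 and 183. The limma fit left this reading out.

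CUST_14140, at the second rank with an SD of 1.82, had the same feature on the second control array. Its control levels were -2.85, 0.32 and -2.97, and the spot at 0.32 was again the probe's only spot and marked as non-uniform. Its exposed levels ran from -2.90 to -1.84, so all of them lay below the high control. The fit left this reading out as well. These were the only 2 of the 10448 probes with every spot marked on a control array.

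The next probes had unmarked spots and the same shape. CUST_18354 read -0.28, -3.09 and -2.64 in the controls. It reached a like level once more, at -0.29 on the second array at 2 nM, and its other exposed levels ran from -2.49 to -1.57. CUST_4216 read -3.04, -0.47 and -3.08 in the controls and stayed between -3.10 and -2.35 on all 9 exposed arrays. CUST_12658 read -0.12, -2.76 and -2.33, and its exposed levels lay between -3.03 and -2.33. Of these 3, CUST_18354 left its usual range on an exposed array and the other 2 did not.

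CUST_19591 and CUST_17651 were high on the first control array, at -0.86 and -0.75, with the other controls between -3.32 and -2.76 for both probes. The exposed arrays of CUST_19591 filled much of that gap, from -2.33 to -1.20, whereas those of CUST_17651 stayed low, from -3.34 to -2.39. CUST_21406 was high on the second control array, at -1.17 against -3.54 and -3.12, and its exposed levels ran from -3.46 to -2.57. CUST_15985 was high on the third, 2.22 above the mean of the other controls at -2.16 and -2.28. In these examples each array took its turn as the high one.

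CUST_17339 was the exception in the leading 10, and the only one of the 100 probes that was printed more than once. It has 5 spots. Its control levels were -4.01, -2.03 and -1.65, with SDs over the spots of each array of 0.19, 0.19 and 0.16. The first control differed by -2.17 from the mean of the others, which was many times the spread of its spots. It varied at 20 nM too, where the levels were -3.35, -1.85 and -2.43 with spot SDs of 0.18, 0.15 and 0.14. On the first control array 60% of its spots were well above background and on the first 20 nM array 80%, so some spots behind both low readings were not well above background. At 0.2 nM the levels were -2.39, -2.83 and -2.08, and at 2 nM they were -2.40, -2.76 and -2.48. The level of -2.83 is the mean of all 5 spots, of which the fit used 4, the fifth being marked.

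The near absence of such probes was a feature of the set. Of the 10448 probes, 80.4% were printed once and 19.5% were printed 5 times, yet 99 of the 100 were printed once. After CUST_17339 at rank 9, the next probe with several spots was CUST_114 at rank 102, followed by CUST_5979 at rank 154. The mean of 5 spots varies less than 1 spot where spots differ, and the share of that in the ranking was not tested.

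The 100 probes were also dim. Their median level over the exposed arrays, which played no part in the ranking, was -1.98 against 0.29 for all 10448, and 74 of the 100 lay in the lowest 25% of levels. Their levels ran from -3.10 to 1.45. Bright probes just missed the choice: CUST_25587 at rank 103 read 3.30, 3.83 and 4.43 in the controls, and CUST_20861 at rank 104 read 2.75, 3.28 and 3.87.

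Ordering the 3 control arrays from high to low gives 6 possible patterns, and all 6 occurred, with 11 to 20 probes each. Over all 10448 probes the same patterns each took 11.9% to 22.3%. CUST_19098 and CUST_18354 led the 17 probes that were highest in replicate 1 and lowest in replicate 2. CUST_19591 and CUST_17651 led the 20 that were highest in replicate 1 and lowest in replicate 3. CUST_14140 and CUST_4216 led the 16 that ran from replicate 2 down to replicate 3, and CUST_21406 and CUST_17945 the 11 that ran from replicate 2 down to replicate 1. CUST_15985 and CUST_11622 led 20 probes highest in replicate 3 and lowest in replicate 2, and CUST_17339 and CUST_25489 led 16 highest in replicate 3 and lowest in replicate 1. CUST_25489, for one, read -2.09, -1.92 and -0.02 in the controls and -2.20 to -1.52 on the exposed arrays, and CUST_17945 read -1.20, 0.60 and -0.75 in the controls and -1.68 to -0.53 on the exposed arrays. In both, 1 control stood above all other arrays. No single ordering of the dishes held for most of the set, nor for most of the array.

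A main axis (the first principal component of the mean-centred values) held 64.6% of the control variance of the 100 probes, and 56.8% without CUST_19098. Over all 10448 probes it held 61.4%. With each probe scaled to the same variance the shares were 56.7% and 58.7%. With 3 arrays there are only 2 axes, so no share can fall below the even split. In the controls the 100 probes were thus no more concentrated on 1 direction than the whole array was once CUST_19098 was set aside. At 20 nM the main axis held 66.9% for the set and 70.0% for all probes, or 62.1% and 67.5% after scaling. At 0.2 nM it held 66.1% and 64.1% (60.8% and 67.8% scaled), and at 2 nM 70.9% and 70.1% (62.0% and 63.7% scaled).

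Whether probes that moved alike between control dishes also moved alike elsewhere was read from the 9 exposed arrays, after each group's mean was removed. The 811 pairs of probes with the same control pattern had a mean Pearson correlation of 0.038, and the 4139 pairs with different patterns had 0.037. All pairs of the 10448 probes averaged 0.020. A correlation over 0.9 was found in 36 of the 4950 pairs (0.727%), against 1.17% of pairs over the whole array. These correlations rest on 9 arrays with 3 group means removed and on shared libraries and slides, and they are given as a description. Of those 36 pairs, 8 shared a control pattern (0.986% of such pairs) and 28 did not (0.676%).

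The pair CUST_24896 and CUST_19515, which have different control patterns, is given because of its values. It had a correlation of 0.977 over the centred exposed arrays. At 20 nM CUST_24896 read 0.99, -1.37 and 0.97, and CUST_19515 read 1.72, 0.23 and 1.74, so the second dish was low for both. At 0.2 nM they read 0.67, 0.56 and -1.64, and 1.65, 1.66 and 0.70, so the third dish was low for both. In the controls they parted, CUST_24896 reading -1.40, -1.16 and -2.29 and CUST_19515 reading 1.30, -0.14 and -0.27. At 2 nM both were steadier, from -0.08 to 0.96 and from 1.27 to 1.65.

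The exposed arrays took no part in the ranking by SD, but a probe had to be well above background on each of them to be eligible. At 20 nM, where the 3 arrays shared 1 slide as the controls did, the median SD of the 100 probes was 0.244, against 0.150 over all 10448. The probes whose SD lay in the top 10% at 20 nM numbered 30 of the 100, where 10.0% of all probes do by construction, and 27 lay below the overall median. The median SD of the set was thus above that of the whole array at 20 nM, but far below its own in the controls, where its median SD was 0.835 against 0.083. Dim probes in general had some of this: among probes of the lowest 25% of levels outside the set, 16.8% were in the top 10% of SDs and the median SD was 0.173. Of the 74 members in that range of levels, 24 (32.4%) were in the top 10% and their median SD was 0.248.

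The size of this excess depended on which dishes were compared. Without the second 20 nM dish the median SD of the set was 0.150 against 0.145 for all probes, a ratio of 1.04. Without the first dish it was 0.140 against 0.077, and without the third 0.236 against 0.153. The number in the top 10% of the array was 36 without replicate 1, 25 without replicate 2 and 29 without replicate 3. The count thus stayed above 10.0% for each pair of dishes, whereas the ratio of the medians was close to 1 for one of the pairs. With normexp on the median signal and quantile normalization the medians were 0.130 for the set and 0.121 for all probes, a ratio of 1.08. That setting added an offset of 50 intensity units to each spot, which narrows log2 differences more for dim spots than for bright ones. The part of the offset in this ratio was not tested.

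The lower concentrations, whose arrays came from 2 slides each, gave higher medians for the set as well. At 0.2 nM the median SD was 0.237 for the set and 0.137 for all probes, with 28 of the 100 in the top 10%. At 2 nM it was 0.326 against 0.179, with 35 in the top 10%. The measured levels of 8 spike-in probes, for RNA added to each sample and averaged over each probe's spots, varied too. Their SDs ran from 0.039 to 0.277 at 0.2 nM and from 0.207 to 0.323 at 2 nM. The part of such differences in the spread of the set was not tested. Lone deviating arrays recurred as well. An array over 1 log2 unit from the mean of the other 2 was seen for 94 probes of the set in the controls, where it is a result of the choice, against 0.928% of all. It was seen for 11 probes at 0.2 nM against 2.62% of all, for 13 at 2 nM against 4.71%, and for 16 at 20 nM against 1.74%. In all, 34 probes had such an array in at least 1 exposed group, against 7.76% of all probes. Of the set 6 had one in 2 groups, and of all 10448 probes 125 did. Over the whole array, 173 of the 182 probes with such an array at 20 nM were printed once. The share among dim probes printed once was not computed. The counts therefore do not set the 100 probes apart from such probes.

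The other side of the count of 34 is that 66 of the 100 showed no such array among the 9 exposed ones, against 9637 of all 10448 probes. The control array that stood apart lay outside the range of the remaining 11 arrays for 82 probes, against 15.3% of all probes, a share fixed in part by the choice. For 62 probes both held: the value was outside the other 11, and no exposed array deviated by over 1. The share of all probes for which both held was not computed, so the 62 are not a result about the set. The first of these conditions rests on the control values that chose the set. The second leaves room for smaller differences: CUST_19591, which met both, had SDs of 0.514, 0.569 and 0.435 at 0.2, 2 and 20 nM. The limit of 1 and the comparison with the other 11 arrays were chosen after the values were seen.

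The probes that varied most at 20 nM were CUST_19317, CUST_24896, CUST_1541, CUST_2855 and CUST_3424, with SDs from 1.44 down to 0.96. CUST_19317 read -0.31, -2.80 and -2.80 at 20 nM. It was high in 2 further dishes, at 0.16 on the first array at 2 nM and -0.92 on the second control array, and ran from -2.56 to -1.97 on the others. Its 3 high dishes came from 3 different groups.

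CUST_2855 read -0.62, -2.0 and -2.42 in the controls and -0.28, -2.29 and -2.18 at 20 nM. CUST_3424 read -0.71, -2.33 and -2.50 in the controls and -1.02, -2.87 and -2.38 at 20 nM. Both were high in the first dish of each of these groups. The labels do not say whether same-numbered dishes of different groups are linked. CUST_1541 had 2 high controls, -2.49, -1.14 and -1.04, and 1 high array at 20 nM, -2.78, -2.72 and -0.69. In these 3 probes the high level occurred in both groups.

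At the other end, CUST_12079, CUST_12658, CUST_11622, CUST_17235 and CUST_2318 had the lowest SDs at 20 nM, from 0.029 to 0.058. CUST_11622 read -1.58, -1.60 and -1.52 there, against -2.90, -2.97 and -0.78 in the controls. CUST_17235 read -2.78, -2.84 and -2.86 at 20 nM against -2.65, -1.23 and -2.69 in the controls. Their SDs at 20 nM lay below the median of 0.150 over all probes, although in the controls they were among the 100 highest. Of the 16 probes with a deviating array at 20 nM, replicate 1 was the deviating one for 8, replicate 2 for 6 and replicate 3 for 2, and it was the brighter in 11.

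The place of the spots on the array moved with these readings. The array has 532 rows, and 87 of the 99 probes printed once lay in the middle 50% of rows, 134 to 399, against 52.2% of all 8400 eligible probes printed once and 50.5% of those in the lowest 25% of levels outside the set. At 20 nM, 15 of 15 probes of the set printed once with a deviating array lay there, and so did 81.0% of the 158 such probes outside the set. At 0.2 nM it was 9 of 11 in the set and 62.7% outside it, and at 2 nM 12 of 13 and 62.1%. The set lay there for 87 of 99 whatever its exposed arrays did, so its counts at each concentration are not a separate result.

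The spots around a probe often shifted with it. Adjacent spots, a median of 6, were taken whatever they carried, other members of the set included. Their median shift on the array that stood apart exceeded 0.5 in the probe's own direction for 33 of 99 probes. The share was 6.05% over all probes printed once and 6.08% for the dim probes outside the set, most of which deviated far less. Probes outside the set with an exposed array over 1 log2 unit off had larger shares. These were 17.2% at 0.2 nM, 13.5% at 2 nM and 21.5% at 20 nM. Such probes in the set numbered 2 of 11, 3 of 13 and 3 of 15. CUST_21406 is the extreme case, with adjacent spots 4.4 higher on the second control array, and they were 1.35 higher beside CUST_17235 and 1.20 beside CUST_11622. Beside CUST_18354 the shift was -0.01 and beside CUST_25489 it was 0.00, so the neighbours did not move there. Of the 10 pairs of set members that lay within 40 units of the scanner's spot positions, 6 stood apart on the same control array and in the same direction. Replicates 1, 2 and 3 stood apart for 41, 22 and 37 of the 100 probes, mostly as the brighter array, so some pairs match at any distance. The share of matching pairs at any distance was not computed.

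The local background around the spots differed by a median of 1.25 intensity units in size between the array that stood apart and the other 2, the same as over all probes printed once. Computed from the median pixel of each spot less the local background, the array that stood apart deviated in the same direction for 100 of 100 probes, with a median size of 1.30, and by over 1 log2 unit for 78. These median pixels come from the same spots on the control arrays that chose the set, so the match in direction is not a separate check. The part of array position, of adjacent spots and of the dishes in these readings was not tested. The 8 brighter spike-in probes are for RNAs added in known amount to each sample (the 2 dimmest were left out). Each of their levels was the mean over all spots of the probe on an array. The SDs were 0.015 to 0.050 over the control arrays and 0.019 to 0.104 at 20 nM. Such SDs do not give the error of a dim probe printed once.

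Few probes of the set were called in any comparison between concentrations, and their differences were no smaller than those of other probes. The groups were compared with limma on all 11923 probes well above background on the 3 arrays of at least 1 group, with Benjamini-Hochberg adjustment over all of them at 0.05. At 0.2 nM against control 0 of the 100 probes and 0 of all probes (0.0%) passed by limma, with 11 of the 100 at an unadjusted p under 0.05 (14.9% of all). At 2 nM 1 probe passed (2.73% of all) and at 20 nM 1 probe passed (2.95%). In the trend, fitted with each concentration 1 step above the last, 2 passed (3.95%). All of these calls in the set were of higher levels in exposed larvae, against 2.42%, 2.49% and 3.03% of all probes called higher. Unadjusted p under 0.05 was found for 16 of the 100 at 2 nM (18.8% of all), 15 at 20 nM (20.4%) and 18 in the trend (22.2%). None of these shares was above that of the whole array, but the choice itself raised the error of these comparisons.

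The control arrays that chose the set enter that error: the median standard error (SE) in them was 0.38 for the set and 0.14 for all probes. The median difference from control was -0.24, -0.26 and -0.25 at 0.2, 2 and 20 nM. That direction is fixed by a choice that mostly took single bright controls, and nothing is read from it. Comparisons among the 9 exposed arrays leave the controls out. There limma called 0 of the 100 and 0 of all probes (0.0%) at 2 nM against 0.2 nM, at 20 nM against 0.2 nM and at 20 nM against 2 nM. At an unadjusted p under 0.05 there were 9, 22 and 12 of the 100 in these comparisons, against 13.5%, 31.0% and 9.28% of all. The median absolute difference of the set was 0.224, 0.337 and 0.228 log2 units, against 0.176, 0.262 and 0.168 for all probes, with median SEs of 0.24 and 0.16. The count over all probes depended on the fit: with the control arrays in the same fit, limma called 17, 1256 and 0 of all probes in these 3 comparisons, and still 0 of the 100.

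CUST_10003 had the largest difference from control of the called probes. Its control values also helped to choose it, and slide is taken up below. Its control levels were -0.61, -1.94 and -1.0. It read 0.81, 0.79 and -0.07 at 0.2 nM, 0.96, 0.27 and 0.57 at 2 nM and 0.78, 1.03 and 0.89 at 20 nM. Every exposed array lay above every control, and the arrays of the 3 concentrations overlapped. At 2 nM it was 1.78 above control (SE 0.33, n = 3 against 3, limma adjusted p = 0.0228), or 3.44-fold. At 20 nM it was 2.08 above control (SE 0.33, limma adjusted p = 0.0138), or 4.23-fold. The trend was 0.63 per step (SE 0.14, limma adjusted p = 0.0276). At 0.2 nM its difference of 1.69 had a limma adjusted p of 0.119.

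CUST_13955 passed in the trend alone. Its controls were 0.23, -0.12 and 1.06, followed by 1.71, 0.44 and 0.80 at 0.2 nM, 1.84, 1.34 and 1.5 at 2 nM and 1.65, 1.92 and 1.81 at 20 nM. The 2 and 20 nM arrays all lay above the controls, and those at 0.2 nM overlapped with them. The trend was 0.48 per step (SE 0.10, limma adjusted p = 0.0243). At 20 nM against control the difference was 1.40 with a limma adjusted p of 0.0533.

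Slide and concentration cannot be told apart in these comparisons with control. Slide 1 held the 3 controls and the third array at 0.2 nM, slide 2 the other arrays at 0.2 nM and 2 at 2 nM, and slide 3 the first array at 2 nM and the 3 at 20 nM. No slide held controls together with 2 or 20 nM. For CUST_10003 the 0.2 nM array on slide 1 (-0.07) was lower than those on slide 2 (0.81 and 0.79). Within slides its steps were 1.11 from control to 0.2 nM, -0.38 from 0.2 to 2 nM and -0.06 from 2 to 20 nM. For CUST_13955 they were 0.41, 0.35 and -0.05. With slide as a block CUST_10003 differed by 0.67 (SE 0.68, limma adjusted p = 0.950) at 20 nM and by 0.73 (SE 0.54, limma adjusted p = 0.734) at 2 nM, and the trend of CUST_13955 was 0.25 (limma adjusted p = 0.916).

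Leaving out 1 array also ended some of these calls. The 2 nM difference of CUST_10003 was 1.40 without the second control array (limma adjusted p = 0.0658), 1.87 without the third control array (limma adjusted p = 0.0582) and 1.8 without the third 2 nM array (limma adjusted p = 0.0636). Its 20 nM difference was 2.09 without the third 20 nM array (limma adjusted p = 0.0583). Its trend had a limma adjusted p of 0.0672, 0.0740 and 0.0843 without the first, the second and the third control array, and of 0.0503 and 0.0539 without the second and the third 20 nM array. The trend of CUST_13955 had a limma adjusted p of 0.0720 without the first control array, 0.0833 without the second and 0.0534 without the third 20 nM array.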

How the data were processed

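Data came from 12 one-colour Agilent arrays, scanned with Agilent Feature Extraction 10.7 per the submitters' processing notes. The deposited scanner files hold processed intensity per spot, as that software computes it, per the file headers. A table of log2 values was deposited too, with a normalization not given in the sources used here. Its columns correlated with the scanner values at 0.999 or above, and their medians were 4.34. It served to choose the 100 probes, and 98 of them were also chosen on scanner values. The probes, measures and lists were chosen with earlier results of these data known.

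Levels were log2 processed intensity minus the array's 75th percentile (293 to 478 units), averaged over a probe's spots. The printed levels, and the SDs taken from them, kept spots that the software marked as outliers. The limma fits dropped those spots. Where a probe had no other spot on an array, its value was printed but not fitted. On each array 11556 to 12829 probes were well above background. The number of arrays limits the precision. Dishes were separate, but p-values cover only 3 dishes per group.

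Tests used limma 3.58.1 (R 4.3.3) and 1 model over all 12 arrays for comparisons with control and for the trend and 1 over the 9 exposed arrays, which was tested on simulated data. Named probes are the 10 with the highest control SD, ranks 96 to 105, the 5 highest and 5 lowest SDs at 20 nM, the called probes and the leading 2 of each control pattern. CUST_19515 and CUST_5979 were named after their values were seen, as were the limits used for deviating arrays, adjacent spots, rows and correlations. Gene lists and tissue markers were not used, since no probe has a gene name. Alternatives covered background, scaling, filter, slide, replicate number and left-out arrays.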

Additional observations from a re-analysis of the deposited data

How the results depend on the processing

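The counts of called probes among the 100 rest on 1 or 2 probes, so small changes of method move them. With slide as a block, as a random block, or with no filter on dim probes, 0 passed at 2 nM, at 20 nM and in the trend. Few of all probes passed there either. The slide block called 1, 0 and 1 of them and the random block 24, 0 and 0. Without the filter 80 (0.303%), 71 (0.269%) and 111 (0.420%) were called. The replicate block gave 2 at 2 nM, 2 at 20 nM and 3 in the trend (2.32%, 2.64% and 3.22% of all probes). Correlations between same-numbered dishes of different groups ran from -0.29 to 0.20 (18 pairs, 3 over 0.1). Their median was 0.02, against -0.01 for other pairs. Slide varied within the 0.2 and 2 nM groups, so values that involve those groups cannot show whether the numbers pair samples. The control and 20 nM groups each lay on 1 slide. Between them the same-numbered values were 0.141, -0.045 and 0.033, and those of other numbers ran from -0.185 to 0.180. Whether the numbers pair samples is not settled by so few values. At 20 nM a fit to the control and 20 nM arrays alone gave 3 (1160 of all probes, 9.73%). Normexp on the median signal, added after seeing the data, gave 2 there (314 of all). Planned normexp on the mean signal was not run, since the files used here have no such column. The fit was first run with marked spots kept; dropping them was decided after those counts were seen, and keeping them gives the same counts (0, 1, 1 and 2 against control and in the trend).

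Leaving out single arrays gave 0 to 1 at 0.2 nM (1, with 430 or 3.61% of all, without 0.2 nM replicate 3). It gave 0 to 2 at 2 nM, 0 to 2 at 20 nM and 0 to 2 in the trend. Over all probes these fits called 36 to 787 at 2 nM, 46 to 567 at 20 nM and 65 to 503 in the trend. Among exposures, leaving out 1 array gave 0 to 11 for 20 against 0.2 nM and 0 to 3 for 20 against 2 nM. The 11 and 3 were reached without 2 nM replicate 1, where 1320 (11.1%) and 494 (4.14%) of all probes were called. That array is the only one at 2 nM on slide 3; the cause was not tested.

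The median SD at 20 nM was 0.130 with normexp, against 0.121 for all probes. Signal, background, an added offset of 50 and normalization changed together there, and the cause was not tested. The SD was 0.756 for the single probe printed 5 times, and the median was 0.140 to 0.236 with 1 array left out. The mean correlation of probes sharing a control pattern ranged from 0.012 to 0.052 with 1 array left out. By the limits used, 156 recomputed values counted as unchanged and 33 as moved. Unchanged values include counts of 0 against 0, a count of 3 against 2, and mean correlations within 0.036 of the reported one. For the called probes, 69 recomputed fits kept the call, 25 lost it and none changed direction. Shares of the main axis could not be computed with 2 arrays.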
